A study of Homo sapiens with 8 samples.

Results

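The chromosome 10p15 end comprises all peaks of the 4 RBPMS eCLIP lists that lie on human chromosome 10 and end at or before position 5000000 (hg19), on either strand. There were 599 such peaks among 194003 in the 4 lists, and 30 of them lay on the plus strand between 1102 kb and 1179 kb, the interval taken for WDR37. The place was chosen by its log2 folds and p-values, so these and the setting of WDR37 against the other 569 peaks are given as descriptions without a test.

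The cells were HUES6, a human embryonic stem cell line in established use, of wild-type genotype and labelled as control in treatment, and the study held 4 eCLIP libraries and 4 input libraries. In eCLIP, protein is crosslinked to RNA in living cells with UV light (here 400 mJ/cm2 on dishes of about 20M cells), the RNA fragments held by the protein are pulled down with an antibody, here against RBPMS, and both they and an input without antibody are sequenced. The input libraries enter only through the 2 values that the authors deposited for each peak, the log2 fold of immunoprecipitation over input and its −log10 p. In their immunoprecipitation reads, the difference between libraries 3 and 4 was below sampling noise (chi-square of 0.951 per degree of freedom over 343 shared peaks, chi-square test, p = 0.732) and the pair entered as 1 sample, while the other 5 pairs gave 4.62 to 7.85. Means are therefore over n = 3 samples, and the labels do not say whether separate cultures were used, so p-values and SDs may measure technical spread only.

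RBPMS is a small RNA-binding protein with a single RNA recognition motif. It acts as a dimer, recognises pairs of CAC triplets and is best known as a regulator of splicing in smooth muscle. WDR37 encodes a protein built of WD repeats, which form a propeller that serves as a platform for other proteins. The RefSeq annotation of GRCh38 gives an order for the named protein-coding genes of this chromosome end. It is TUBB8, ZMYND11, DIP2C, LARP4B, GTPBP4, IDI2, IDI1, WDR37, ADARB2, PFKP, PITRM1, KLF6 and AKR1E2. Of these, ZMYND11, GTPBP4, WDR37, PFKP and AKR1E2 are on the plus strand and the others are on the minus strand. GTPBP4 is a GTPase of ribosome assembly, IDI1 and IDI2 are isomerases of isoprenoid synthesis, ADARB2 is a member of the family of RNA-editing adenosine deaminases, and PFKP is the platelet type of the glycolytic enzyme phosphofructokinase. Since the peaks are on hg19, peaks outside the WDR37 interval were not assigned to genes, and whether any peak is exonic, intronic or in an untranslated region was not analysed here.

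Libraries 1, 2, 3 and 4 listed 103, 299, 94 and 103 peaks in the 10p15 end. A peak was called enriched when its log2 fold was at least 3, which is 8-fold over input, and its −log10 p was at least 3. By this rule 36, 56, 26 and 31 peaks were enriched, on average 40.2 ± 14.2 (SD, n = 3). For library 1 this was 35.0% of the listed peaks (Wilson 95% interval 26.4 to 44.5), for library 2 it was 18.7% (14.7 to 23.5), for library 3 27.7% (19.6 to 37.4) and for library 4 30.1% (22.1 to 39.5). In all listed peaks of the series the shares were 15.9%, 5.38%, 12.6% and 12.7% in libraries 1 to 4. The share in the 10p15 end was the higher in each of the 4 libraries. It averaged 27.5% ± 8.20, against 11.3% ± 5.38 in the rest of the series (SD, n = 3). The median log2 fold of the enriched peaks was 4.69 ± 0.080 in the 10p15 end and 4.37 ± 0.20 in the rest of the series.

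The depth behind these peaks was low for most of them. Read numbers that reproduce both deposited values could be worked out for 524 of the 599 peaks. Their median was 4, 5, 4 and 6 immunoprecipitation reads in libraries 1 to 4, over a median of 1, 2, 1 and 1 input reads. Input was sequenced 3.18, 1.04, 2.12 and 1.46 times as deeply as the immunoprecipitation, so that over 1 input read a peak could be called with 7 reads in library 1 and only from 13, 8 and 10 reads in libraries 2, 3 and 4. The counts of enriched peaks are therefore not set against each other between libraries. A further 99 peaks reached the fold but not the p. The closest of them to the thresholds were 2 minus-strand peaks of library 1 at 569166-569240 and 1738039-1738117, both with log2 3.47 and −log10 p of 2.99, and the closest inside were 2 peaks of library 3 at 625680-625718 (minus strand) and 3166999-3167086 (plus strand), both with log2 3.26 and −log10 p of 3.004.

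**Figure D1:**
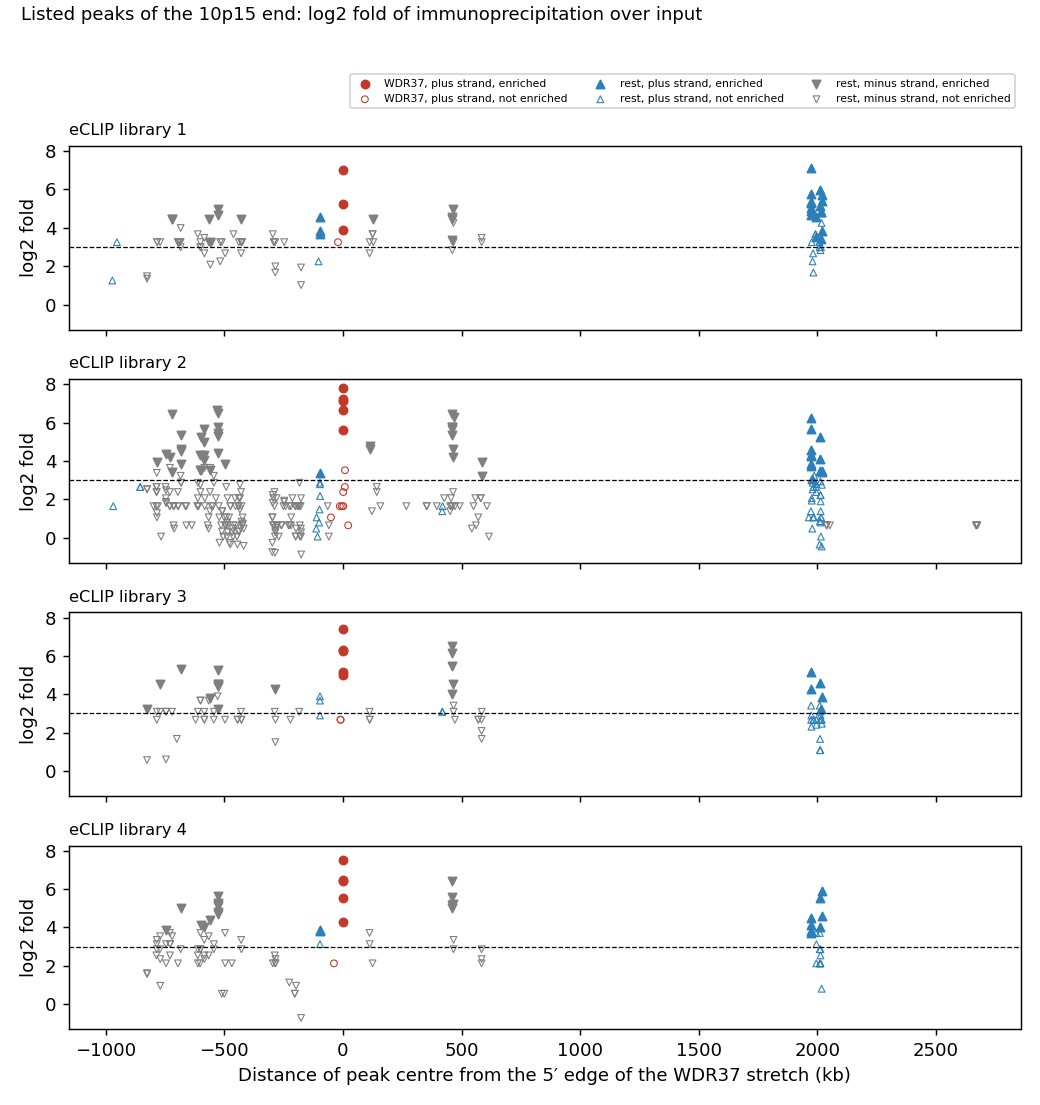
Log2 fold of immunoprecipitation over input (y axis) of the 599 listed peaks in the 4 eCLIP libraries, by the distance of the peak's centre from the 5′ edge of the WDR37 stretch (x axis, kb). Filled symbols are enriched peaks and the dashed line marks log2 of 3; the WDR37 peaks reach 7.02, 7.83, 7.41 and 7.54 in libraries 1 to 4, and the plus-strand group on the right is set off by a wide stretch without peaks.

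WDR37 held 18 enriched peaks, and all 18 lay within 575 bases, chr10:1153454-1154028, on the plus strand. That stretch is 0.747% of the 77001 bases of the interval, 51454 bases after its start and 24972 bases before its end. Library 1 had 3 enriched peaks there, and libraries 2, 3 and 4 had 5 each. Of the listed WDR37 peaks, 3 of 4 were enriched in library 1 (75.0%, Wilson 95% interval 30.1 to 95.4) and 5 of 13 in library 2 (38.5%, 17.7 to 64.5). Library 3 had 5 of 7 (71.4%, 35.9 to 91.8) and library 4 had 5 of 6 (83.3%, 43.6 to 97.0). In the rest of the 10p15 end the shares were 33.3%, 17.8%, 24.1% and 26.8%. The mean was 63.6% ± 21.8 in WDR37 and 25.5% ± 7.75 in the rest (SD, n = 3). The WDR37 share was above the rest in each library, although with 4 to 13 peaks per library its intervals are wide. The enriched WDR37 peaks are also neighbouring pieces of 1 stretch, which is counted 3 times in library 1 and 5 times in each other library. Joined across libraries, they formed 3 regions. The shares and intervals treat such pieces as independent, which they are not, and neighbouring pieces occur in the rest too.

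The other 12 WDR37 peaks were single-library listings with few reads. Before the stretch lay 7 of them and after it 5, and none overlapped a peak of another library. Library 2 listed 8 of them, library 3 listed 2, and libraries 1 and 4 listed 1 each. Their log2 folds ran between 0.65 and 3.52, their −log10 p between 0.17 and 2.54, and 8 of the 12 rested on 3 immunoprecipitation reads. The deepest, at 1162274-1162375 in library 2, had 11 reads over 1 input read. A peak of library 1 at 1132839-1132880 reached log2 3.25 with 3 reads over 1, but its −log10 p was 1.35. No peak was listed on the minus strand of the WDR37 interval in any of the 4 libraries.

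Within the stretch, libraries 2, 3 and 4 had nearly the same 5′ edge, and libraries 1, 3 and 4 nearly the same 3′ edge. On the 5′ side the enriched peaks of libraries 1 to 4 began at 1153526, 1153454, 1153461 and 1153457. Libraries 2, 3 and 4 thus lay within 7 bases of each other, and library 1 began later. On the 3′ side they ended at 1153985, 1154028, 1153981 and 1153979. The end in library 2 came from a last peak of 41 bases at 1153988-1154028, with log2 5.62 and 47 reads over 1 input read, that no other library listed. The peaks tiled the stretch, covering 409, 575, 441 and 456 bases in libraries 1 to 4. Of the 575 bases, 354 (61.6%) lay in enriched peaks of all 4 libraries, 93 in 3 libraries, 58 in 2 and 70 in 1.

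The log2 fold was not even along the stretch. In library 1 it was 3.89 at 1153526-1153583, 7.02 at 1153635-1153802 and 5.25 at 1153803-1153985. Library 2 had 7.23 at 1153454-1153603, 7.11 at 1153604-1153786, 6.67 at 1153787-1153888 and 7.83 at 1153889-1153987, and then 5.62 in its last peak. Library 3 had 4.99 and 5.17 in its 2 peaks before 1153603, then 6.29, 7.41 and 6.26. Library 4 had 5.54 and 4.30, then 6.43, 7.54 and 6.50. Libraries 1, 3 and 4 were thus lowest at the 5′ side and highest in the middle. Library 2 had its highest peak further 3′, next to its lowest. Each fold is that of a whole peak, and the peaks differ in width. The highest peak was also the widest in libraries 3 and 4, at 163 and 140 bases. In libraries 1 and 2 it was not, at 168 and 99 bases. Whether the differences along the stretch follow peak width was not tested, so they are not a profile of binding per base. Among bases covered in all 4 libraries, the mean over samples was highest over the 33 bases 1153754-1153786, at 7.20 ± 0.24 (SD, n = 3). Each base took the log2 fold of the whole peak that covered it, so these bases do not mark a summit of reads.

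**Figure D2:**
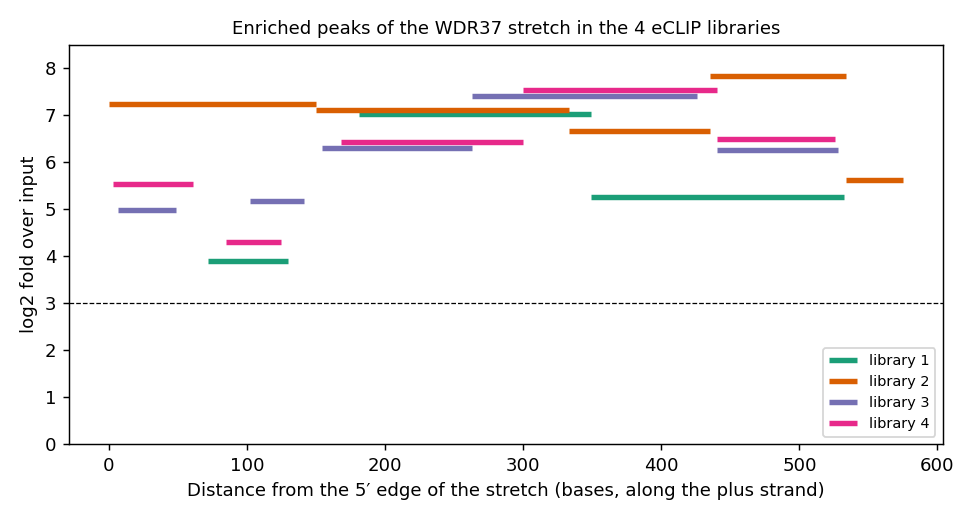
The 18 enriched peaks of the WDR37 stretch, each drawn as a bar over the bases it covers (x axis, distance in bases from the 5′ edge along the plus strand) at its log2 fold over input (y axis), coloured by eCLIP library. The bars of libraries 1, 3 and 4 lie at 3.89 to 5.54 over the first part and reach 7.02 to 7.54 in the middle, whereas library 2 is at 7.23 from the start.

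The folds of the strongest peaks rest on very few input reads. Of the 18 enriched peaks, 11 had a −log10 p of 15.66, which leaves the read numbers open up to a common multiple. This is where the deposited value stops for peaks whose p matches Fisher's exact test, taken here in its binomial form for large libraries. Peaks whose p matches a chi-square test go higher, as at 1153803-1153985 in library 1 with 36.6. The smallest whole reads that give the deposited fold were 41 over 1 in library 1 at 1153635-1153802 and 218 over 1 in library 2 at 1153889-1153987. They were 80 over 1 in library 3 at 1153717-1153879 and 128 over 1 in library 4 at 1153754-1153893. An input of 0 and an input of 1 cannot be told apart by this working back, so a fold over 1 input read depends on how the authors treated 0. The peak with the most input reads among those resolved in WDR37 was that of library 1 at 1153803-1153985, with 60 reads over 5.

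To compare libraries, overlapping enriched peaks of 1 strand (1 base or more) were joined to regions across libraries, and a region was called reproducible if at least 3 of 4 libraries had an enriched peak in it. Among the 64 regions of the 10p15 end, 38 came from 1 library, 7 from 2, 7 from 3 and 12 from all 4. The 19 reproducible regions, 9 on the plus strand and 10 on the minus strand, were part of 1699 reproducible regions among 7472 in the whole series. Since libraries 3 and 4 count separately in this rule, 4 of the 19, all in the rest, rested on 2 samples only, namely library 2 and the sample of libraries 3 and 4. They numbered 12 without library 2 and 12 without library 4, where all 3 other libraries had to be enriched. WDR37 held 3 regions, of which 2 were enriched in all 4 libraries and the third, the last peak of library 2 at 1153988-1154028, in that library only. The rest held 17 reproducible regions, 10 of them in all 4 libraries.

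The downstream WDR37 region, chr10:1153604-1153987 on the plus strand, had a highest log2 fold of 7.02, 7.83, 7.41 and 7.54 in libraries 1 to 4. The 4 values were close to each other, with a mean of 7.44 ± 0.40 (SD, n = 3). By its mean over the 4 libraries it ranked 13 among the 940 regions of the series enriched in all 4 libraries, whose median was 5.01. The upstream region, chr10:1153454-1153603, directly adjoins it and varied more. It had 3.89, 7.23, 5.17 and 5.54 in libraries 1 to 4, a mean of 5.49 ± 1.67, and ranked 293. Library 1 was the lowest and library 2 the highest library in both regions.

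The 17 reproducible regions of the rest had means over libraries between 3.74 and 5.68, with a median of 4.95, so the downstream WDR37 region lay above each of them. The region chr10:1614134-1614496 on the minus strand had log2 folds of 3.37, 6.45, 6.51 and 6.40 in libraries 1 to 4, with a mean of 5.43 ± 1.78. Libraries 2, 3 and 4 were close together there and library 1 stood far below. Its neighbour chr10:1613792-1614117, also minus, had 4.56, 5.78, 6.13 and 5.57 (5.40 ± 0.72), and chr10:1619459-1619639, minus, had 4.99, 6.29, 4.54 and 5.24 (5.39 ± 0.78). Library 1 was the lowest of the 4 in the first of these and second lowest in the other.

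On the plus strand, chr10:3127940-3128082 had its highest value in library 1, with 7.13, 5.68, 4.26 and 4.13 in libraries 1 to 4 (5.66 ± 1.47, SD, n = 3). The value of library 1 there, with reads in the ratio of 44 to 1, was above its own highest WDR37 value of 7.02. In libraries 2, 3 and 4 the highest peak of the whole 10p15 end lay in WDR37, and WDR37 supplied 4, 3 and 3 of the 5 highest peaks. In library 1 the highest WDR37 peak ranked 2, and WDR37 supplied 1 of the 5 highest. The region chr10:625360-625579 on the minus strand was enriched in 3 libraries, at 6.51, 4.54 and 5.63 in libraries 2, 3 and 4, which are 2 samples, and had no enriched peak in library 1.

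Joining reproducible regions of 1 strand with gaps of at most 1000 bases gave 10 runs, 4 of them with at least 2 regions. The WDR37 run, 534 bases long, had a width-weighted mean log2 fold of its enriched peaks of 5.79, 7.19, 6.47 and 6.48 in libraries 1 to 4, a mean of 6.49 ± 0.70 (SD, n = 3). The means of the other 9 runs lay between 3.62 and 5.27. In libraries 2, 3 and 4 no other run reached the WDR37 value of that library. In library 1 the run at 3163432-3163560 on the plus strand did, with 5.99. Enriched peaks covered 76.6%, 100%, 82.6% and 85.4% of the WDR37 run in libraries 1 to 4.

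The longest run, on the minus strand at 624848-626300, held 5 regions in 1453 bases. Its enriched peaks covered 151, 682, 320 and 394 bases of it, a smaller part of the run than in WDR37 in each library. Its weighted means were 4.78, 5.60, 4.49 and 5.18 in libraries 1 to 4. The plus-strand run at 3126904-3128082 held 4 regions in 1179 bases and had 5.40, 4.44, 4.82 and 4.07. The weakest run, on the minus strand at 594365-594675, was enriched in all 4 libraries but at 3.25, 3.52, 3.79 and 4.40.

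**Figure D3:**
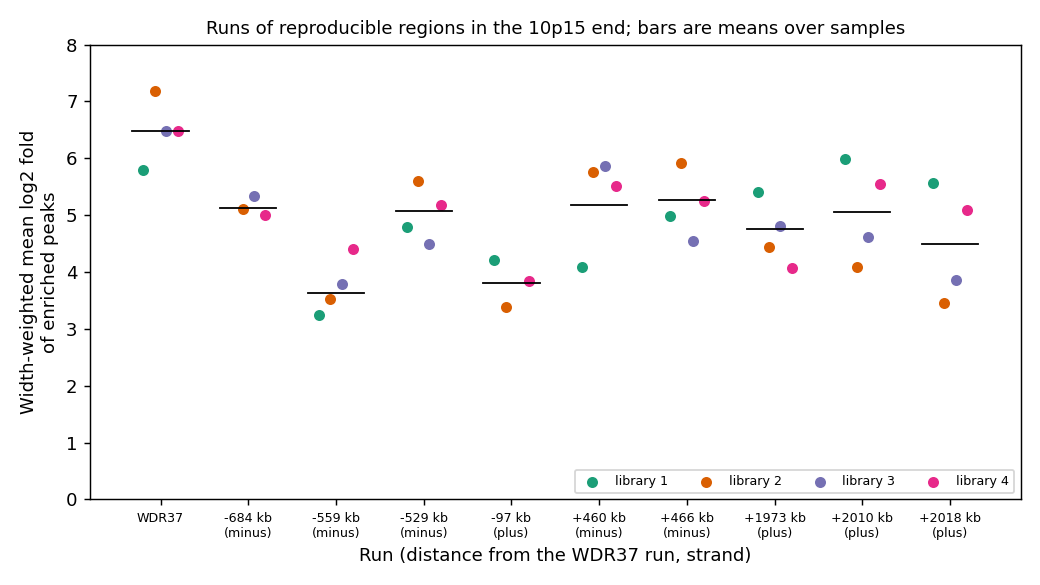
Width-weighted mean log2 fold of the enriched peaks (y axis) in each of the 10 runs of reproducible regions, with WDR37 first and the others by their distance from it (x axis, kb, strand in brackets). Points are eCLIP libraries and black bars are means over samples; WDR37 lies at 5.79 to 7.19, and library 1 is the highest point in 4 of the 5 plus-strand runs but the lowest in WDR37.

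Sorted by position, the 149 enriched peaks formed 4 blocks, with a new block begun at each change of strand. Each block is of 1 strand by how it was drawn, and only the number of blocks is an observation. The first held 54 peaks between 327977 and 868477 on the minus strand, the second 24 between 1056603 and 1154028 on the plus strand. The third held 27 between 1265584 and 1738138 on the minus strand, the last 44 between 3126722 and 3172015 on the plus strand. Listed peaks of any fold followed nearly the same division, with 0 of 284, 3 of 41, 4 of 83 and 0 of 110 peaks on the opposite strand inside these 4 blocks. WDR37 made up the 3′ part of the second block, and its stretch was 96.5 kb from the nearest enriched peak before it and 112 kb from the nearest after it. The enriched peaks of that second block outside WDR37 lay at 1056603-1056969, where log2 folds of the reproducible region were 4.57, 3.38 and 3.86 in libraries 1, 2 and 4. No peak of any library was listed between 1769084 and 3116758, or between 3827052 and 5000000, where the 10p15 end was cut.

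The enriched peaks of each library over the 4 blocks are described next. As the reads needed for a call differ between libraries, these counts are not set against each other. The last block, with 44 enriched peaks in 45.3 kb, held 18 of the 36 enriched peaks of library 1, 13 of 56 of library 2, 5 of 26 of library 3 and 8 of 31 of library 4. The first block held 7, 25, 11 and 11 of them. In the last block 18 of 29, 13 of 38, 5 of 23 and 8 of 20 listed plus-strand peaks were enriched in libraries 1 to 4, and the median log2 fold of the enriched was 5.09, 4.09, 4.26 and 4.31. In the block with WDR37 library 1 had the lowest median of the 4, at 4.23 against 6.89, 6.26 and 5.54 in libraries 2, 3 and 4. These medians mix different peaks, as WDR37 supplied 3 of 6, 5 of 6, 5 of 5 and 5 of 7 in libraries 1 to 4. Among the enriched WDR37 peaks alone the medians were 5.25, 7.11, 6.26 and 6.43. Whether differences between the libraries in these counts or medians come from the cells, the immunoprecipitation, the depth or the set of peaks called was not tested.

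A high −log10 p did not always go with a high fold. At 327976-328039 on the minus strand, a place of 64 bases, libraries 2 and 4 each listed 2 peaks with the largest −log10 p of their lists, 400. Their log2 folds were 2.54 and 2.52 in library 2 and 1.62 and 1.57 in library 4. Library 1 had 1.48 and 1.34 there, and library 3 had 3.21 over a peak of 4 bases and 0.57 over the following 59 bases. The peak of 4 bases in library 3, with 83 reads over 19 input reads, was the only enriched peak of this place.

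The width of a peak was not itself used in choosing the place, but in each library the median enriched peak was wider than the median listed peak, in WDR37 and in the rest, so width is not independent of the values that chose the place and its difference is given without a test. The median width of the enriched peaks was 168, 102, 88 and 86 bases in WDR37 and 78, 100, 87 and 83.5 bases in the rest, in libraries 1 to 4. The median width of the listed peaks was 113, 56, 42 and 72 bases in WDR37 and 55, 55.5, 51 and 54 bases in the rest, in libraries 1 to 4. The difference averaged 21.0 ± 32.1 bases (WDR37 minus the rest, SD, n = 3), and it was positive in 3 of 3 samples but below 0 in library 3 taken singly. The difference was thus smaller than its spread between samples. Peaks with less signal than input were few, with 0, 11, 0 and 1 peaks below a log2 fold of 0 in the 10p15 end, and none of these lay in WDR37.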

How the data were processed

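The 4 eCLIP libraries came with 1 peak list each, on hg19 per the submitters' processing notes, and no list of an input library was used. Per the file contents, each deposited peak has a log2 fold of immunoprecipitation over input and a −log10 p, both made by the authors. The sources used here name no aligner, peak caller or input per list. A peak belonged to WDR37 if it overlapped the interval from 1102 kb to 1179 kb on the plus strand. Reads per peak were solved from both deposited values. The log2 ratio of the whole reads, shifted by 1 constant per library, had to give the log2 fold. Their p had to lie within 0.003 of the deposited p in relative terms. That p came from a chi-square test with Yates correction where both reads were 5 or more. Otherwise it came from a binomial test, which stands for Fisher's exact test in large libraries. A single solution was found for 93.0% to 98.3% of the peaks tried per library. The step was tested on simulated data, which leaves unknown whether the authors used these tests. The replicate check paired peaks sharing at least 80% of the longer one, with at least 40 reads together. Intervals cover counting error only, and PCR duplicates are not independent molecules. Named in full were the reproducible WDR37 regions and the 5 others whose log2 fold, averaged over libraries, was highest. Each region took, per library, the log2 fold of its highest enriched peak. The members, thresholds and lists were chosen with earlier results of these data known. Alternatives changed the thresholds, the overlap, the gap, the libraries required and the libraries used. Python 3.11.15, pandas 2.3.3, numpy 2.4.6 and scipy 1.17.1 were used.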

Additional observations from a re-analysis of the deposited data

Results flagged for a closer look

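With the 4 libraries taken as single values, 5 of 38 quantities passed Dixon's criterion for a value apart from the others, used here as a screen and not as a test. Chance passes it in about 1 of 20 groups of independent values, a rate that does not hold here, because libraries 3 and 4, elsewhere 1 sample, enter as separate values and because several of the quantities rest on the values that chose the place. Library 2 listed 299 peaks in the 10p15 end, and its gap to the next library was 0.956 of the distance between highest and lowest. The same held for the 286 peaks that library 2 listed outside WDR37 (0.940). The median log2 fold of its listed peaks, 1.65 against 3.09 to 3.25 in the others, lay apart in the other direction (0.896). The number of enriched WDR37 peaks was 3 in library 1 and 5 in each other library (a gap of 1, which the ties between the others fix). As the reads needed for a call differ between libraries, these counts are not set against each other. The log2 fold of library 1 in region chr10:1614134-1614496 was 3.37 against 6.40 to 6.51 (0.965). The first 3 of these quantities share the same peaks of library 2 and are not independent.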

How the results depend on the processing

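No paired analysis was possible because only eCLIP libraries carry a list, which already holds the comparison with input. The reproducible regions of the 10p15 end numbered 12 when all 4 libraries were asked for, and 12 to 16 with each library left out and all 3 others asked for; fewer libraries can meet the rule then. Among these settings the WDR37 regions numbered 2 throughout. With each library left out, the width difference between WDR37 and the rest lay between 2.5 and 31.2 bases, without a change of sign. Of 64 recomputed values of the main results, 61 kept within 1.5 times the count or within 1 SD of the value, and the 3 others are the counts of 12. Thresholds do not enter the medians of listed peaks, which were not recomputed under them. As the region's value, the median over its listed peaks gave 6.55 for the downstream WDR37 region and 4.32 for chr10:1619459-1619639, both lower by more than 1 SD. Depth limits every fold over 1 input read.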
